A study of Homo sapiens with 4 samples.

Results

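The miR-320 family is a group of human microRNAs (miRNAs) with near-identical mature sequences. Its members were taken as every entry whose mature name begins with miR-320, which gave 4 of the 843 names in the table: miR-320a-3p, miR-320b, miR-320c and miR-320d. miRNA sequencing was performed on RNA that stayed on streptavidin beads after a pull-down with a biotinylated RNA probe. The lysates came from HGC27 and AGS, both established human gastric cancer cell lines. All 4 libraries carry the same genotype, in which a lentivirus stably overexpresses the 3′-UTR (3′-untranslated region) of the fibronectin gene FN1, so no library without it was compared. The groups were HGC27 with the negative probe, HGC27 with the positive probe, AGS with the negative probe and AGS with the positive probe, with 1 library each. The study's methods describe coating the beads with an antisense RNA, without saying which of the probes this was. Whether the cells were a single clone is not given in the sources used here. With no replicates, the size of a difference between probes in 1 line has no replicate error to be judged by.

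Most miRNAs are cut from a long transcript by the nuclear enzyme Drosha before Dicer trims them in the cytoplasm. miR-320a is the textbook exception. Its transcript starts at the base of a short hairpin, so that the capped hairpin needs no Drosha, is exported by exportin 1 and is cut by Dicer alone, and mainly the 3p arm is loaded into Argonaute. Target genes described for miR-320a include those of beta-catenin and phosphofructokinase. miR-484 is made in the same way from a transcription start site and served as the nearest comparison.

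The family is defined by its 5′ end. The mature sequences of miR-320b, miR-320c and miR-320d are shown because they let the counts be read against the bases that tell the members apart. They are written 5′ to 3′ as deposited, and the same letters are held by RefSeq (GRCh38.p14). The capitals mark the seed, bases 2 to 8, which does most of the pairing with targets.
miR-320b: aAAAGCUGgguugagagggcaa
miR-320c: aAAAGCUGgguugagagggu
miR-320d: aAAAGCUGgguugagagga
miR-484: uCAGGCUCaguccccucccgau

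The 4 members had the same seed, and no other known entry of the table had it. miR-320a-3p, whose sequence is not printed, shared its first 20 bases with miR-320b, its first 19 with miR-320c and its first 18 with miR-320d. Counted from 1 at the 5′ end, miR-320b and miR-320c differed by C20U, and both differed from miR-320d by G19A, at its last base, beside their lengths of 22, 20 and 19 bases. The members are therefore told apart by at most the last 4 bases of the 3′ end, and how reads that match several of them were assigned is not given in the sources used here. A predicted entry of 17 bases had the family seed and lay wholly within the 5′ start that all 4 members share, so it cannot be given to one of them. It had 10 counts in the negative and 3 in the positive probe library of HGC27 and was not listed in AGS. RefSeq also holds miR-320e, whose 18 bases start 1 base later, so that its seed is shifted by 1 base. Its first 15 bases match miR-320b read from base 2. It was not analysed here.

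miR-320b, miR-320c and miR-320d each come from a pair of hairpins with the same mature sequence, so their counts cannot be given to one locus. All positions are from RefSeq on GRCh38.p14, set against the GENCODE annotation of GRCh38. miR-320b matched MIR320B1 on chromosome 1 from 116671787 to 116671808 (plus strand), outside any annotated host gene, and MIR320B2 on chromosome 1 from 224257049 to 224257070 (minus strand), in an intron of NVL on the same strand. miR-320c matched MIR320C1 on chromosome 18 from 21683559 to 21683578 and MIR320C2 from 24321716 to 24321735, both on the plus strand and opposite to introns of ABHD3 and OSBPL1A. miR-320d matched MIR320D1 on chromosome 13 from 40727828 to 40727846 and MIR320D2 on chromosome X from 140926172 to 140926190, both on the minus strand and outside any host gene. The RefSeq hairpins of these 6 loci were 71 or 72 bases long. miR-484 lies on chromosome 16 from 15643301 to 15643322 (plus strand), in an exon of NDE1 on the same strand.

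Almost all counts of the family belonged to miR-320a-3p. It had 21720 counts with the negative and 2429 with the positive probe in HGC27, and 4174 and 144 in AGS. These are 7472, 879, 581 and 34 deposited tags per 1000000, in the same order. The HGC27 negative probe library was the highest and the AGS positive probe library the lowest. Within its library, miR-320a-3p was the 11th most counted of 574 listed miRNAs with the negative probe in HGC27 and the 42nd of 609 with the positive probe. In AGS it was the 19th of 342 and the 72nd of 361.

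The other members had few counts. miR-320b had 10 and 2 counts with the negative and positive probe in HGC27, and 6 with the negative probe in AGS. miR-320c had 7 with the negative probe in HGC27 and 3 with the negative probe in AGS. miR-320d had 5 and 4 in HGC27, and 2 with the negative probe in AGS. None of these 3 was listed with the positive probe in AGS, and miR-320c was not listed with the positive probe in HGC27 either. The lowest count in the table is 2, so a blank stands for fewer than that. In both negative probe libraries the order was miR-320a-3p, miR-320b, miR-320c, miR-320d, but the last 3 lie within counting error of their neighbours in that order.

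**Figure D1:**
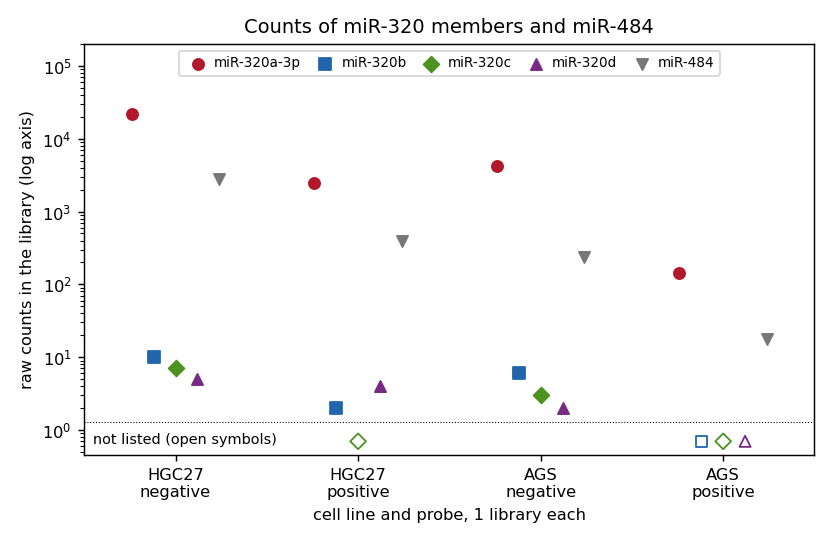
Raw counts (log axis) of the 4 miR-320 members and of miR-484 in each of the 4 libraries, with open symbols for miRNAs that were not listed. miR-320a-3p runs from 144 to 21720 counts and the other members never pass 10.

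miR-320b, miR-320c and miR-320d together made up 22 of 21742 family counts in the HGC27 negative probe library, or 0.101% (Wilson 95% confidence interval, CI, 0.0668 to 0.153). The share was 6 of 2435, 0.246% (0.113 to 0.537), with the positive probe in HGC27 and 11 of 4185, 0.263% (0.147 to 0.470), with the negative probe in AGS. These intervals overlap, those of the pair of negative probe libraries only narrowly. Overlap of separate intervals does not make the shares equal, and no interval of their difference was computed. In the AGS positive probe library 0 of 144 family counts fell to these members. At this depth that leaves an upper Wilson limit of 2.60%, which covers the other 3 shares, so a different make-up was not detectable there. All such intervals cover counting error only.

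As a share of all miRNA counts, the family took 1.50% (Wilson 95% CI 1.48 to 1.52) with the negative and 0.188% (0.180 to 0.195) with the positive probe in HGC27. In AGS it took 0.142% (0.137 to 0.146) and 0.00943% (0.00801 to 0.0111). The family share was lower with the positive probe in both lines, and lower in AGS than in HGC27 with either probe. The AGS shares depend on 1 miRNA, because miR-372-3p held 80.8% of the AGS negative and 37.5% of the AGS positive probe counts, against 0.178% and 0.300% in HGC27. Without miR-372-3p in the totals, the AGS family shares were 0.738% and 0.0151%.

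The comparison of the probes asks which miRNAs were recovered differently by the 2 probes. The ratio used was the deposited tags per 1000000 + 1 with the positive probe over the same with the negative probe. A ratio of at most 0.5 was called lower and of at least 2 higher. In HGC27, miR-320a-3p had a ratio of 0.118, which is 8.49-fold lower with the positive probe. The exact 95% CI of the fold from the counts was 8.15 to 8.87. Such intervals belong to this count fold, which has no pseudocount and no rounding, and not to the ratio. In AGS its ratio was 0.0601, or 16.6-fold lower, with an interval of 14.6 to 20.5. The positive probe libraries were thus the low ones in both lines.

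Of the 4 members, 3 were called lower and 0 higher in HGC27, where 34.0% of 755 listed miRNAs were called lower and 37.5% higher. In AGS, 2 were called lower and 0 higher, where 22.7% of 459 were called lower and 39.4% higher. With 4 members, most of them on few counts, nothing particular to the family is read from these shares. In AGS the call of miR-320b rests on rounded values of 1 and 0 tags. With unrounded values its log2 ratio was -0.88 and only miR-320a-3p was called there, beside 16.3% of the listed miRNAs. With a pseudocount of 10 only miR-320a-3p was called lower in either line, beside 8.34% of the listed miRNAs in HGC27 and 7.84% in AGS. Under TMM, a scaling that sets most miRNAs level between libraries, all 4 members were called lower in AGS, where 38.6% of the listed miRNAs then were. The median log2 ratio of the members was -1.29 in HGC27 and -0.50 in AGS, and that of all listed miRNAs was 0.00 in both lines.

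Among the members with few counts, only the direction of miR-320b and miR-320c in HGC27 lay outside counting error on the deposited scale. miR-320b had a ratio of 0.50 there and a count fold of 0.210, with an exact 95% CI of that fold of 0.0224 to 0.987. miR-320c had a ratio of 0.333 in HGC27 and was 2.22-fold lower with the positive probe when its blank was set to a floor of 3 counts. That value takes its 7 counts with the negative probe as exact. The exact upper limit of its count fold was 0.730, or 1.37-fold lower. miR-320d had a ratio of 0.667 in HGC27 and was not called, with an interval of 0.167 to 3.91. In AGS, the 6 counts of miR-320b against a blank gave a ratio of 0.50 and a value of 1.19-fold lower at the same floor, but the exact upper limit of the fold was 1.43. The 3 and 2 counts of miR-320c and miR-320d gave upper limits of 4.07 and 8.95, which allow a change in either direction.

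**Figure D2:**
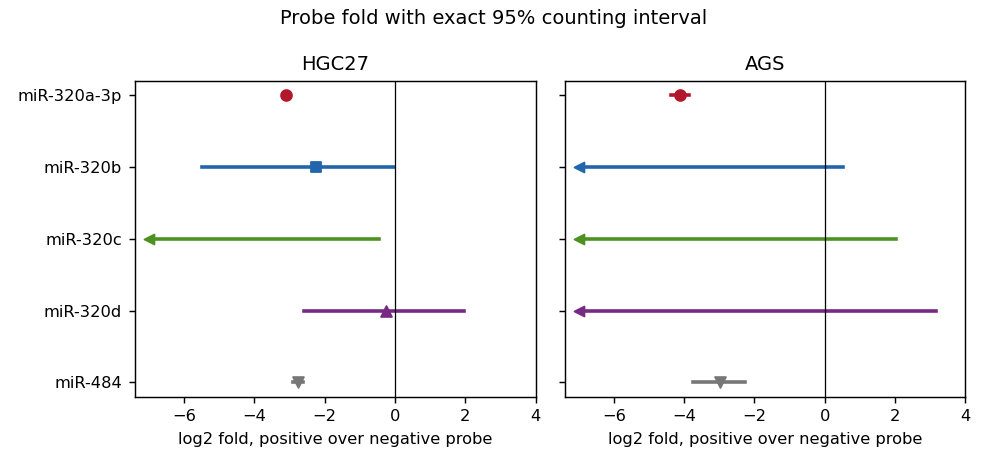
Log2 fold of the counts, positive over negative probe, scaled by the deposited divisors, with exact 95% counting intervals as bars and arrows where the interval has no lower end. The bars of miR-320a-3p and miR-484 are short and lie left of 0 in both lines, and those of miR-320b, miR-320c and miR-320d span 0 in AGS.

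Whether the minor members moved like miR-320a-3p was compared with a conditional odds ratio and its exact 95% CI, which needs no scaling because both miRNAs come from the same 2 libraries. In HGC27 the odds ratio of miR-320d against miR-320a-3p was 7.15 (1.42 to 33.3), so its 5 and 4 counts stayed closer together than those of miR-320a-3p. It was 1.79 (0.190 to 8.40) for miR-320b, and the upper limit was 6.21 for miR-320c, intervals that include 1. In AGS, where none of the 3 was listed with the positive probe, the upper limits were 24.8, 70.5 and 155 for miR-320b, miR-320c and miR-320d. The odds ratios compare these libraries and not the probes as conditions.

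miR-320a-3p was set among the abundant miRNAs, since low counts widen the ratios. Of the 71 miRNAs that reached 1000 counts in HGC27, 20 were called lower, and miR-320a-3p had the 7th lowest ratio. In AGS, 17 of 46 were called lower, and miR-320a-3p had the 6th lowest. The 1000 counts could be reached in either library of the line. In AGS miR-320a-3p reached them only with the negative probe, at 4174 counts against 144 with the positive probe. Relative to the median of all miRNAs that reached 10 counts, it stood at -2.97 in HGC27 and at -4.47 in AGS on the log2 scale.

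The probe fold of miR-320a-3p was further from 1 in AGS than in HGC27. The difference of the count folds, AGS minus HGC27, was -1.02 on the log2 scale (95% CI from counting error -1.27 to -0.77). With 1 library per line and probe this difference could not be tested against replicate spread. It kept its sign under 5 other scalings of the libraries, at values from -0.89 to -2.61.

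The only comparison of the probes with more than 1 library a side took the lines as replicates. edgeR's quasi-likelihood test on the counts, with the line as covariate, kept 271 miRNAs, and 1 of the 4 members, miR-320a-3p, passed the filter on low counts. Its log2 fold change was -4.00 ± 1.46 (SE), lower with the positive probe in 2 of 2 lines, and it was not called at an adjusted p of 0.0575 (unadjusted p 0.00662, edgeR). In this test 2.95% of the miRNAs were called lower, and 0 of 1 tested members was called. The call depended on the tool. DESeq2 called miR-320a-3p at -3.68 ± 1.00 (SE, log2) with an adjusted p of 0.00492, and limma-voom did not, at -4.08 with an adjusted p of 0.109. In DESeq2 14 of the 843 miRNAs put in were called lower, and limma-voom called 0 of 271. miR-320b, miR-320c and miR-320d got no adjusted p in DESeq2, so fewer than 843 were adjusted. edgeR with library totals in place of TMM gave -3.45 with an adjusted p of 0.0835.

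The lines were compared within each probe. miR-320a-3p had 21720 counts in HGC27 and 4174 in AGS with the negative probe, a ratio of 12.8 (exact 95% CI of the count fold 12.4 to 13.3). With the positive probe it had 2429 and 144 counts, a ratio of 25.1 (22.0 to 31.1). HGC27 was the higher line with either probe on this scale. The counts are of RNA recovered on the beads, and no library of the whole lysate was compared. They are therefore not read as levels in the cells. In such bulk material, fewer cells with a miRNA and fewer copies per cell cannot be told apart either.

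All 4 members were called higher in HGC27 with the negative probe, where 86.0% of 615 listed miRNAs were. With the positive probe, all 3 listed members were called higher, against 75.3% of 684. The calls depended on the scaling. With the negative probe 0 members were called higher under TMM and under DESeq2 scaling, where 39.5% and 25.0% of the listed miRNAs were. Without miR-372-3p in the totals 1 member was, against 60.5%. The log2 ratios of miR-320b, miR-320c and miR-320d turned negative under each of these scalings. That of miR-320a-3p moved from 3.68 to 0.65 under TMM. With the positive probe 1 member was called under DESeq2 scaling, against 27.6% of the listed miRNAs. Most miRNAs lay on the HGC27 side of this scale, and the median of those that reached 10 counts had a log2 ratio of 2.81 with the negative and 2.58 with the positive probe. Without miR-372-3p in the totals these medians were 1.11 and 2.24. Relative to that median, miR-320a-3p was higher in HGC27 by 0.88 with the negative and by 2.07 with the positive probe. The scaling of the libraries cancels in this difference apart from the weight of the pseudocount on low counts. For the negative probe the value was 0.30 with the table's own totals, -0.083 under TMM, -0.063 under DESeq2 scaling and -0.084 without miR-372-3p. The positive probe values were 1.54, 1.35, 1.36 and 1.39 in the same order. With no pseudocount, an alternative chosen after seeing the data, the relative values were -0.16 and 1.23. No direction against the median is therefore read for the negative probe.

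edgeR's quasi-likelihood test of the line, with the probe as covariate, gave miR-320a-3p a log2 fold change of 1.31 ± 1.35 (SE), HGC27 over AGS, with an adjusted p of 0.509. In that test 22.1% of 271 miRNAs were called higher in HGC27, and 0 of 1 tested members was called. The unadjusted p of miR-320a-3p was 0.334 in edgeR, and it was not called by DESeq2 (adjusted p of 0.393) or limma-voom (adjusted p of 0.363) either. With library totals in place of TMM the log2 fold change was 3.86 with an adjusted p of 0.0108 in edgeR, where the median of all tested miRNAs was 3.17. In that setting 155 of 271 miRNAs were called higher in HGC27, so nothing particular to miR-320a-3p is read from the call.

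**Figure D3:**
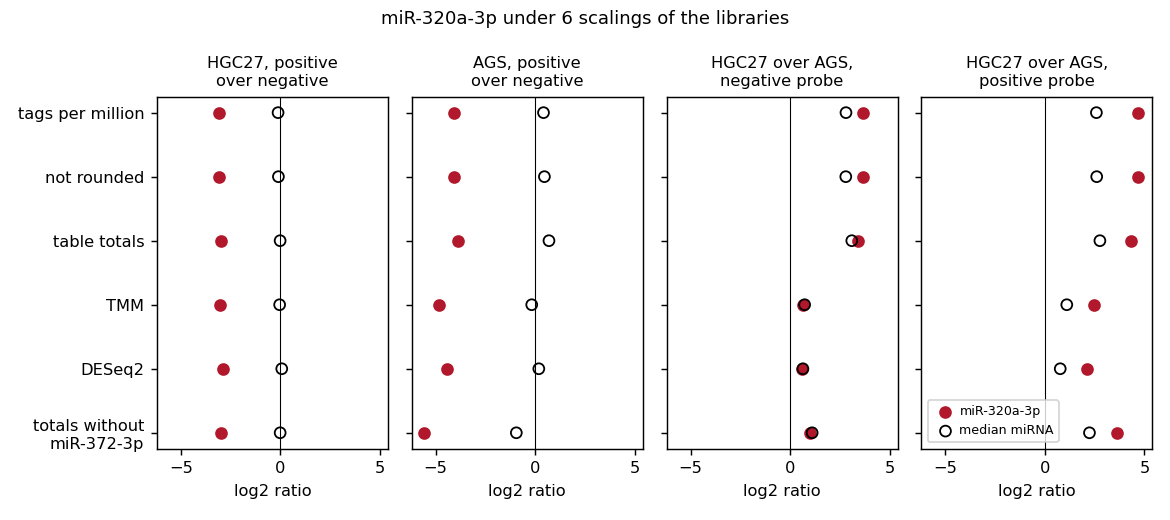
Log2 ratio of miR-320a-3p (filled) and median over all miRNAs that reached 10 counts (open) in the 4 comparisons under 6 scalings of the libraries. The filled points lie left of the open ones for both probe comparisons throughout, from -2.90 to -3.09 in HGC27 and from -3.89 to -5.60 in AGS. For HGC27 over AGS with the negative probe they meet under TMM, under DESeq2 scaling and without miR-372-3p.

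miR-484, the other miRNA here known to start at a transcription start site, had 2779 and 391 counts with the negative and positive probe in HGC27 and 236 and 18 in AGS. Its ratio was 0.148 in HGC27, or 6.74-fold lower with the positive probe (exact 95% CI of the count fold 6.08 to 7.53). In AGS it was 0.147, or 6.80-fold lower (4.83 to 13.4). Like miR-320a-3p, miR-484 was lowest in the AGS positive probe library and highest in the HGC27 negative probe library. In edgeR's test across the lines its log2 fold change was -3.24 ± 1.21 (SE), with an adjusted p of 0.0625, and it was not called.

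The pair was also set side by side within each library, a ratio that no scaling can move and that was chosen after the counts were seen. There were 7.82 counts of miR-320a-3p for each of miR-484 in the HGC27 negative probe library (exact 95% CI 7.51 to 8.13) and 6.21 (5.58 to 6.93) in the positive one. In AGS the values were 17.7 (15.5 to 20.3) and 8.0 (4.89 to 13.9). The AGS negative probe library stood above the other 3. The odds ratio of miR-484 against miR-320a-3p between the probes was 1.26 (1.12 to 1.41) in HGC27 and 2.21 (1.25 to 3.70) in AGS, so miR-320a-3p was the more reduced of the pair beyond counting error in both lines.

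The other Drosha-independent miRNAs on the list were mirtrons, whose hairpin ends are made by splicing. Besides miR-484, the table held miR-877-5p, miR-877-3p and miR-1226-3p, and none of these passed 18 counts in a library. miR-1226-3p had 18 and 2 counts with the negative and positive probe in HGC27 and was not listed in AGS. Its ratio was 0.286 and its count fold 0.117 (exact 95% CI of that fold 0.0132 to 0.488). miR-877-5p had 11 and 6 counts in HGC27 and was not called, with a ratio of 0.60 (0.174 to 1.69). miR-877-3p had 5 counts with the positive probe and a blank with the negative probe in HGC27, a ratio of 3.00 in the opposite direction, whose interval starts at 0.964. Of these 4 miRNAs 2 were called lower and 1 higher in HGC27, and 1 was called lower in AGS. Beside the 34.0% of all listed miRNAs called lower and 37.5% called higher in HGC27 and the 22.7% called lower in AGS, nothing is read from these counts.

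The known miRNAs whose pattern was nearest to that of miR-320a-3p were found by Euclidean distance on log2(tags per 1000000 + 1), centred over the 4 libraries, among 356 with at least 10 counts in all. They were miR-20a-5p (distance 0.372), miR-16-5p (0.484), miR-17-5p (0.554), miR-15b-5p (0.861) and miR-140-3p (0.960). miR-484 was the 7th (1.15). These distances rest on 4 libraries that all miRNAs share, and carry no test.

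miR-20a-5p, the nearest, had 35380 and 3272 counts with the negative and positive probe in HGC27 and 6478 and 171 in AGS. Its probe log2 ratios were -3.36 (HGC27) and -4.46 (AGS), beside -3.09 and -4.06 for miR-320a-3p. miR-17-5p, which lies in the same cluster of Drosha-dependent miRNAs as miR-20a-5p, had log2 ratios of -2.68 and -4.47. miR-16-5p rested on 2 counts in the AGS positive probe library and miR-15b-5p on 4. With a pseudocount of 10 in place of 1, miR-20a-5p, miR-17-5p and miR-15b-5p stayed among the nearest 5.

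The cell lines were checked by miRNAs known to mark cell types. The 6 epithelial miRNAs (miR-200 family, miR-141-3p and miR-203a-3p) summed to 10294 and 821 tags per 1000000 in the AGS libraries and to 780 and 371 in those of HGC27, negative probe first. The 4 mesenchymal ones (miR-199 and miR-214) are 3 distinct sequences, since the 3p arms of miR-199a and miR-199b have the same letters and the same counts. With each sequence counted once, a choice made after seeing the data, they summed to 2 and 5 in AGS and to 2832 and 313 in HGC27. Most of the HGC27 sum was miR-199a-3p, at 2646 and 21 tags per 1000000, while miR-199a-5p went the other way, from 162 to 285. Of the 3 miRNAs chosen to mark blood cells, 0 had a count here. Markers of both kinds were thus listed in both lines, and no other cell type is read from them. Both sums in HGC27 and the epithelial sum in AGS were lower with the positive probe, and the mesenchymal sum in AGS was not. Their part in the values of miR-320a-3p was not tested.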

How the data were processed

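The first table holds the raw counts of tags for each mature miRNA as deposited by the authors, and the other a score the authors made from them, tags per 1000000 with the decimals rounded off. The submitters' processing notes name cutadapt 1.9.3, Novoalign 3.02.12 and hg38. The miRNA database release is not given in the sources used here. Rows repeated for several precursors were collapsed, from 901 to 843 names, and a blank was taken as 0. The table totals were 1452832 and 1296853 counts for HGC27 and 2955078 and 1527390 for AGS, negative probe first. The divisors behind the scores were recovered from the entries with a high score, and the totals were 35.7% to 50.0% of them, for reasons not given. One count is worth 0.139 to 0.362 tags per 1000000.

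Groups were taken from the labels, with 1 library per group, so ratios carry no test. Exact 95% intervals of a fold came from the binomial distribution of the counts, scaled by the divisors (SciPy 1.17.1). The probe and the line were tested by edgeR's quasi-likelihood test over the 4 libraries (edgeR 4.0.16 under R 4.3.3, TMM, filterByExpr), and p-values were adjusted by Benjamini-Hochberg over 271 miRNAs. The fit had 1 residual degree of freedom, and no miRNA kept a spread of its own. The common coefficient of variation over all miRNAs was 0.612. Each SE given for edgeR is the log2 fold change divided by the square root of its F statistic. The lines are not replicates of one culture. With line and probe both in the fit, the residual is how far the probe difference disagrees between the lines, pooled over all miRNAs. These p-values therefore measure no spread between replicates. DESeq2 1.42.0 and limma-voom 3.58.1 were alternatives. The scripts were tested on simulated data. Every member is named, with the listed entries of a fixed list of Drosha-independent miRNAs, predicted entries sharing at least 16 bases with a member, and the 5 nearest known miRNAs. Members and lists were chosen with earlier results of these data known.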

Additional observations from a re-analysis of the deposited data

How the results depend on the processing

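No paired analysis was possible because the libraries carry no replicate numbers, beyond the line term of the edgeR fit, by which the probes are already compared inside each line. Without that term the adjusted p of miR-320a-3p was 0.622 in edgeR. miR-320a-3p stayed lower with the positive probe in both lines under every scaling and pseudocount tried. The unrounded divisors were chosen after seeing the data, as were the ratios with no pseudocount, the odds ratios and the ratio to miR-484. The causes of the shifts below were not tested. At 144 to 21720 counts, counting error is small, so most scalings moved miR-320a-3p beyond it, while the other members, with at most 10 counts, are limited by depth.

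For miR-320a-3p the log2 ratio of the probes in HGC27 was -2.996 with the table's own totals, -3.02 under TMM, -2.90 under DESeq2 scaling and -2.99 with miR-372-3p left out. In AGS it was -4.82 under TMM, -4.45 under DESeq2 scaling, -5.60 with miR-372-3p left out and -3.75 with a pseudocount of 10. HGC27 over AGS with the negative probe was 3.40 with the table's own totals, 0.65 under TMM, 0.58 under DESeq2 scaling and 1.02 with miR-372-3p left out. With the positive probe it was 4.30, 2.45, 2.13 and 3.63 in the same order, and 4.34 with a pseudocount of 10.

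Members called lower in HGC27 were 1 under DESeq2 scaling, with a pseudocount of 10 and with a ratio threshold of 4. Of the listed miRNAs, 12.3% were called lower there under DESeq2 scaling and 8.34% with a pseudocount of 10. In AGS 4 members were called lower under TMM and with miR-372-3p left out, where 38.6% and 45.3% of the listed miRNAs were. With unrounded values and with a pseudocount of 10 it was 1 member, beside 16.3% and 7.84%. With a filter of 10 counts, which only miR-320a-3p passed, and with a threshold of 4 it was also 1 member. Members called higher in HGC27 with the negative probe were 0 under TMM and DESeq2 scaling, beside 39.5% and 25.0% of the listed miRNAs. The members called were 1 with miR-372-3p left out and with a pseudocount of 10, beside 60.5% and 30.4%. They were 1 with a threshold of 4 and 2 with at least 10 counts. With the positive probe 1 member was called higher under DESeq2 scaling and with a pseudocount of 10, beside 27.6% and 23.7% of those listed. It was also 1 with a filter of 10 counts and with a threshold of 4. Shares over all listed miRNAs were not computed for the filter and the threshold of 4. The HGC27 over AGS log2 ratio with the negative probe reversed under TMM, DESeq2 scaling and with miR-372-3p left out, to -0.81, -0.70 and -0.55 for miR-320b, -0.37, -0.31 and -0.11 for miR-320c, and -0.26, -0.21 and -0.026 for miR-320d. With no pseudocount the value of miR-320a-3p relative to the median, HGC27 over AGS with the negative probe, reversed from 0.88 to -0.16. It also reversed under TMM, DESeq2 scaling and with miR-372-3p left out, to -0.083, -0.063 and -0.084.

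Across both lines, miR-320a-3p became called for the probe with DESeq2 size factors in edgeR (-3.68, adjusted p 0.0173) and in DESeq2 (-3.68, adjusted p 0.00492), 1 member in each. In these settings 16 of 271 tested miRNAs and 14 of the 843 put in were called lower. Over the other edgeR and limma-voom settings the adjusted p of miR-320a-3p for the probe ran from 0.0835 to 0.622. With the members summed to 1 entry, the adjusted p of that sum was 0.0576 in edgeR. For the line miR-320a-3p became called with library totals only (3.86, 1 member), where 155 of 271 tested miRNAs were called higher in HGC27. With 1 line left out, values with no test, the probe log2 fold change ran from -4.82 to -3.02, and with 1 probe left out the line value ran from 0.65 to 2.45. The family share in AGS was 0.738% and 0.0151% without miR-372-3p. Of the other Drosha-independent miRNAs, 1 was called lower in HGC27 with a pseudocount of 10, beside 8.34% of all listed miRNAs. In AGS under TMM 3 were called lower, beside 38.6%. Of the 5 nearest miRNAs, 3 remained with a pseudocount of 10.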

Other observations

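Matches to the seeds were counted in the FN1 3′-UTR, 1101 bases on chromosome 2 from 215360454 to 215361554 of GRCh38 (minus strand) in the annotated transcript used here. The letters searched were the reverse complement of bases 2 to 8 in the 3′-UTR and the seed itself, which would pair with the antisense strand. The miR-320 seed had 0 matches on either strand, and so had that of miR-484. Of 478 distinct seeds of known miRNAs in the table, 7.53% had a match in the 3′-UTR and 6.90% in its antisense strand. A lack of these letters says nothing about other kinds of pairing.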
